A study of Saccharomyces cerevisiae with 24 samples.

Results

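The DTT response of budding yeast whose only Ire1 lacks the lumenal domain was read from 6 of the 24 arrays of the series, 3 labelled Δire1+ire1ΔLD+DTT and 3 labelled Δire1+ire1ΔLD. The arrays were chosen by their titles alone, and all 6165 genes measured above background in at least 1 group enter the results. Every strain was W303, mating type a, and lacked its own IRE1 gene. The cells called ΔLD cells here expressed ire1ΔLD, an Ire1 without the lumenal domain, and the cells called IRE1 cells here, used for comparison (3 arrays with DTT and 3 without), expressed Ire1. Treated cells were kept for 1 hour in 2 mM DTT, and untreated cells had none. All cultures grew at 30 °C in selective synthetic medium, and 100 ng of total RNA was labelled for each array. The promoter and copy number of the introduced gene, and whether a strain was 1 clone, are not given in the sources used here.

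Ire1 spans the membrane of the endoplasmic reticulum (ER), the compartment where secreted and membrane proteins fold. Its lumenal domain faces the folding compartment and binds unfolded proteins, and its cytosolic part is a kinase and an RNA-cutting enzyme that starts the splicing of HAC1 messenger RNA. The Hac1 protein made from spliced RNA switches on genes for folding, modification, transport and degradation of ER proteins, which is known as the unfolded protein response. DTT is a reducing agent that breaks disulfide bonds. Yeast also has stress programmes that do not run through Ire1: Hsf1 drives cytosolic chaperone genes, Msn2 and Msn4 drive the general stress genes, and stress of many kinds lowers genes for making ribosomes.

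A level below is the log2 spot signal of a gene minus the 75th percentile of its array, and a change is the level with DTT minus the untreated level of the same strain, so that 1 is a 2-fold rise. Levels of different genes rest on different probes and are not set against each other. A gene was called when its adjusted p from limma, fitted over all 6165 genes, was under 0.05. The 75th percentile of the raw signal lay between 6942 and 14213 on the 12 arrays of the 2 strains, and 90.7% to 95.8% of the spots were well above background. Arrays of 1 group correlated across genes at 0.995 or more. Each replicate number is 1 slide and 1 scan, and each group had the same place on every slide, so place and group cannot be told apart. That replicates came from separate cultures is not stated, and the p-values measure the spread between these arrays, which may be technical.

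The targeted gene and the mating type were checked first. IRE1 (YHR079C) stood at −0.13, 0.45 and 0.52 with DTT, against −0.19, −0.16 and 0.10 untreated, in ΔLD cells. In IRE1 cells it stood at −2.34, −2.28 and −1.57 with DTT, against −2.58, −2.27 and −1.71 untreated. All 6 ΔLD arrays therefore lay above all 6 arrays of IRE1 cells for this transcript, and the change with DTT in ΔLD cells was not called (0.36, SE 0.25, adjusted p 0.217; adjusted p 0.02 with the slide as a block). Which part of the gene the probe covers is not known here, so it does not check the deletion. The part of this difference in transcript amount in the results below was not tested. Of the markers of mating type a, all 6 were above background on all 12 arrays. Of the 4 markers of the opposite type, STE3 and SAG1 were above background on all 12 arrays as well, while MF(ALPHA)1 was so on 1 ΔLD array with DTT and 3 untreated, and MF(ALPHA)2 on 1 and 0.

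DTT changed a large part of the transcriptome in ΔLD cells. With DTT 2413 genes were called higher, 39.1% of those tested, and 1817 lower, 29.5% of those tested, so 68.6% in either direction. Changes of at least 2-fold were seen for 381 higher genes (6.18%) and 339 lower genes (5.5%), and changes of at least 4-fold for 62 and 15 genes. All of the 720 genes with a 2-fold change had the same direction on each of the 3 slides, and 492 of them changed at least 2-fold on every slide. The groups did not overlap for 72.1% of all genes. In IRE1 cells 2467 genes were called higher (40%) and 1938 lower (31.4%), of which 447 (7.25%) and 398 (6.46%) changed at least 2-fold. The median standard error of a change was 0.080.

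Directions here are set against the bulk of genes measured by an array. The 75th percentile lay above the level of the E1A control probes by 3.06, 3.13 and 3.37 (log2) on ΔLD arrays with DTT, against 2.81, 2.66 and 3.06 on untreated ΔLD arrays. In IRE1 cells it lay above them by 3.10, 3.44 and 3.36 with DTT, against 2.50, 2.61 and 2.42 untreated. Scaled to those probes, the median change of all genes in ΔLD cells was 0.41 in place of 0.07, 82.9% of called genes were higher in place of 57.0%, and 840 genes rose and 76 fell at least 2-fold. Quantile normalization gave 48.3% higher. Where the E1A scaling turns the sign of a list's median, this is said beside it.

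**Figure D1:**
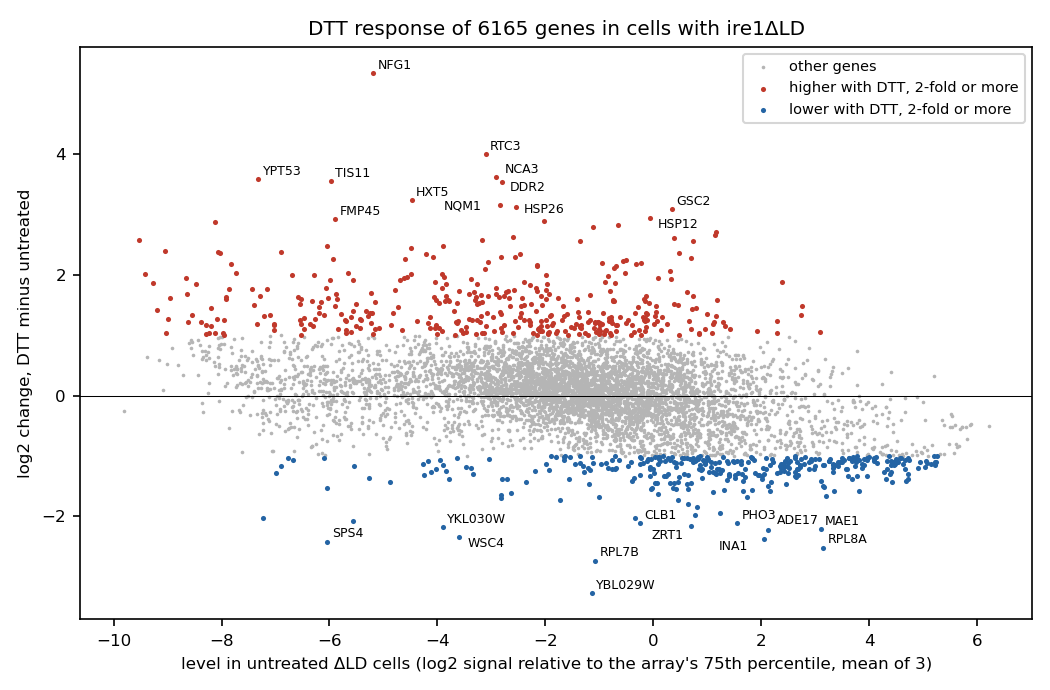
Log2 change with DTT in ΔLD cells (vertical axis) against the untreated level of the gene (horizontal axis, log2 relative to the 75th percentile of the array, mean of 3 arrays), 1 point for each of 6165 genes. The 381 genes that rose at least 2-fold are red and the 339 that fell at least 2-fold are blue; NFG1 stands highest at 5.35 and YBL029W lowest at −3.27.

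The largest rise was that of NFG1 (YLR042C), a cell wall protein that restrains filamentous growth. Its level was −0.34, 0.56 and 0.26 with DTT, against −5.21, −4.94 and −5.41 untreated. That is a rise of 5.35 (SE 0.25, adjusted p 2.68e-08), or 40.7-fold, with more than 4 log2 units between the nearest arrays of the groups. RTC3 (YHR087W), which encodes a small stress-induced protein, had 1.12, 0.74 and 0.87 with DTT, against −3.10, −3.33 and −2.87 untreated, a change of 4.01 (SE 0.20, adjusted p 3.91e-08). NCA3 (YJL116C), a member of the SUN family of cell wall proteins, had 0.60, 0.68 and 0.85 with DTT, against −3.20, −2.78 and −2.76 untreated, a change of 3.62 (SE 0.13, adjusted p 6.75e-09). The groups of both genes were far apart, and so were those of the next 3 genes. YPT53 (YNL093W), a Rab5-type protein of endosomes, rose by 3.59 and was above background on 2 of the 3 untreated arrays. TIS11 (YLR136C), an RNA-binding protein that lowers messenger RNAs of iron-using proteins when iron is short, had −1.77, −2.79 and −2.70 with DTT, against −6.10, −6.04 and −5.80 untreated, a change of 3.56 (SE 0.25, adjusted p 2.78e-07); replicate 1 with DTT was the highest of its group. DDR2 (YOL052C-A), a general stress gene, had 0.57, 0.73 and 0.88 with DTT, against −3.37, −2.78 and −2.28 untreated, a change of 3.54 (SE 0.34, adjusted p 2.56e-06).

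The other 6 of the 12 largest rises were 2.93 to 3.24. HXT5 (YHR096C), a hexose transporter of slow-growing cells, rose by 3.24, and NQM1 (YGR043C), a transaldolase, by 3.16. HSP26 (YBR072W), a small heat shock protein that binds unfolded proteins, had 0.33, 0.50 and 0.89 with DTT, against −3.18, −2.59 and −1.87 untreated. Its untreated arrays spread widely, yet all lay below the treated ones, and the change was 3.12 (SE 0.43, adjusted p 4.77e-05). GSC2 (YGR032W), a subunit of the glucan synthase that builds the cell wall, had 3.24, 3.52 and 3.58 with DTT, against 0.16, 0.30 and 0.61 untreated, a change of 3.09 (SE 0.23, adjusted p 3.64e-07). HSP12 (YFL014W), a membrane-associated stress protein, rose by 2.95, and FMP45 (YDL222C), a plasma membrane protein of the Sur7 family, by 2.93.

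Among the 12 largest falls, YBL029W, whose role is not known, came first. Its level was −4.61, −4.42 and −4.20 with DTT, against −1.43, −1.20 and −0.78 untreated, a change of −3.27 (SE 0.16, adjusted p 3.45e-08). The next were genes of the large ribosomal subunit, RPL7B (YPL198W) with −4.08, −3.63 and −3.71 with DTT, against −1.09, −1.03 and −1.10 untreated and a change of −2.73 (SE 0.13, adjusted p 2.73e-08), and RPL8A (YHL033C) with 0.81, 0.50 and 0.60 with DTT, against 3.12, 3.22 and 3.13 untreated and a change of −2.52 (SE 0.13, adjusted p 4.76e-08). The RPL7B gene overlaps the small nucleolar RNA gene SNR59, and both proteins have a near-identical copy, so the signals may hold RNA of more than 1 gene. SPS4 (YOR313C), a sporulation gene, had −7.98, −9.03 and −8.36 with DTT, against −5.88, −6.21 and −6.01 untreated. Only 1 of the treated arrays was above background, so the size of its change rests on signal near background. The measured change was −2.42 (SE 0.21, adjusted p 1.28e-06), and −1.35 with normexp background correction. In IRE1 cells SPS4 changed by −0.04, and the difference between the strains was −2.38 (SE 0.30, adjusted p 0.000365), and −1.14 with that correction.

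The other 8 falls lay between −2.38 and −2.11. INA1 (YLR413W) had −0.53, −0.11 and −0.34 with DTT, against 2.06, 2.05 and 2.06 untreated and fell by 2.38. ADE17 (YMR120C), an enzyme of purine synthesis, changed by −2.23. MAE1 (YKL029C), the mitochondrial malic enzyme, changed by −2.22, and its neighbour YKL030W, a reading frame absent from the reference gene table, by −2.17. Whether the 2 overlap could therefore not be looked up, and their signals may be shared. WSC4 (YHL028W), of the WSC family of stress sensors, changed by −2.34. ZRT1 (YGL255W), the high-affinity zinc importer, had −2.08, −1.18 and −1.14 with DTT, against −0.03, 0.95 and 1.18 untreated, and replicate 1 was the lowest array in both groups. Its change was −2.17 (SE 0.57, adjusted p 0.00522). CLB1 (YGR108W), a mitotic cyclin, changed by −2.12 and PHO3 (YBR092C), an acid phosphatase, by −2.11.

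**Figure D2:**
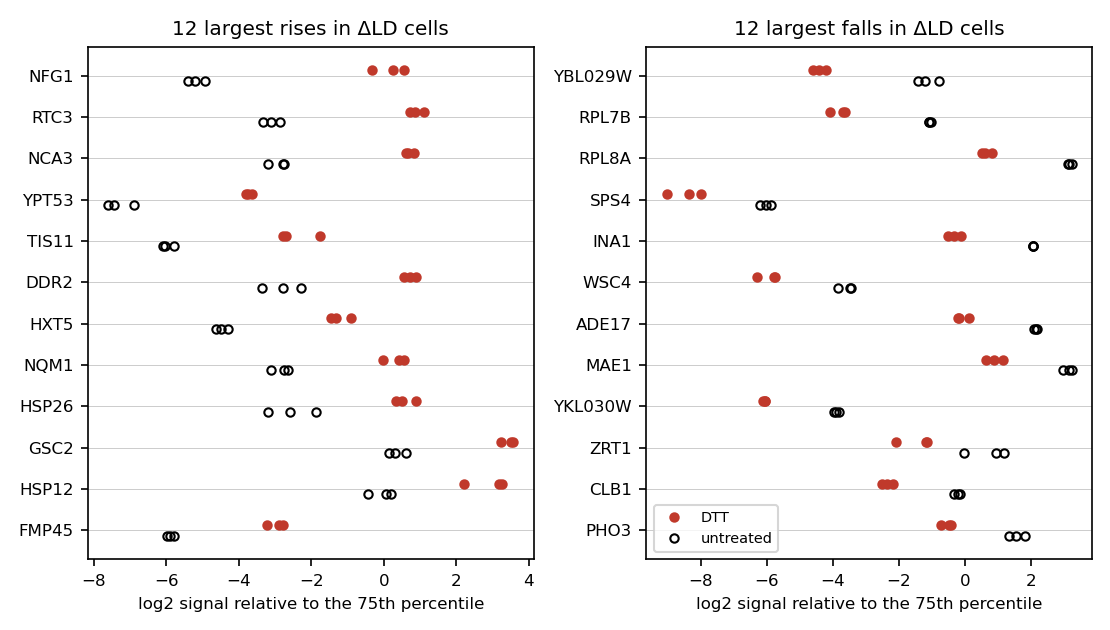
Levels (log2 signal relative to the 75th percentile of the array) of the 12 genes with the largest rises (left) and the 12 with the largest falls (right) in ΔLD cells; filled points are the 3 arrays with DTT and open points the 3 untreated arrays. Only genes whose 2 groups of points lie apart could be chosen. NFG1 lies between −0.34 and 0.56 with DTT and between −5.41 and −4.94 untreated.

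Cytosolic chaperone genes rose in ΔLD cells. Of 17 genes of the cytosolic heat shock list, 16 were called higher and none lower (39.1% of all genes were higher). Of the 17, 11 rose at least 2-fold (6.18% of all genes). The median change was 1.15, against 0.07 over all genes, and on the 3 slides it was 1.33, 1.17 and 1.09. SSA4 (YER103W), the stress-induced Hsp70, had 1.90, 1.56 and 1.59 with DTT, against −1.20, −1.19 and −0.93 untreated, a change of 2.79 (SE 0.16, adjusted p 7.58e-08). SSA1 (YAL005C), another cytosolic Hsp70, had 2.88, 2.79 and 2.84 with DTT, against 0.48, 0.39 and 0.56 untreated, a change of 2.36 (SE 0.12, adjusted p 3.4e-08). HSP82 (YPL240C), the inducible Hsp90, had 3.04, 2.97 and 2.95 with DTT, against 0.67, 0.65 and 0.79 untreated, a change of 2.28 (SE 0.08, adjusted p 6.75e-09). The 3 genes were at least 4-fold higher with DTT, and no array of 1 group reached the other. HSP104 (YLL026W), which pulls proteins out of aggregates, had 2.52, 2.21 and 2.39 with DTT, against 0.80, 0.41 and 0.98 untreated, a change of 1.65 (SE 0.16, adjusted p 2.5e-06). BTN2 (YGR142W), which gathers misfolded proteins, rose by 2.25. The constitutive Hsp90 gene HSC82 was the 1 member not called (0.19, adjusted p 0.228).

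In IRE1 cells 13 of the same 17 genes were called higher, with a median of 0.78. The rise was larger in ΔLD cells for 8 of the 17 and smaller for none, while over all genes the difference was called higher in ΔLD cells for 2.61% and lower for 7.43%. SSA4 stood at 0.29, 0.33 and 0.81 in IRE1 cells with DTT, against −1.34, −1.04 and −0.86 in untreated IRE1 cells, and its difference was 1.23 (SE 0.22, adjusted p 0.0046). The difference was 1.38 for BTN2 (adjusted p 0.013), 0.69 for HSP82 (adjusted p 0.00276), 0.66 for SSA1 (adjusted p 0.0243) and 0.52 for FES1 (adjusted p 0.00822), which encodes a nucleotide exchange factor of Hsp70. These larger rises depend on the slides and on the scaling: with slide 2 left out none of the 17 differences was called, and scaled to the E1A probes only that of BTN2 was, with a list median of 0.07 in place of 0.52. With the slide as a block 11 were called, and then also that of HSP26 (adjusted p 0.00462).

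The general stress genes, which Msn2 and Msn4 are known to drive, had the highest median of the 26 lists. Of 18 genes 17 were called higher, all 17 at least 2-fold (6.18% of all genes), with a median of 1.97 and slide medians of 1.88, 2.22 and 1.92. RTC3, DDR2, NQM1 and HSP12 led, as given above. SPI1, a cell wall protein gene, was the member not called (0.88, adjusted p 0.0621), and was called with the slide as a block (adjusted p 0.00111). In IRE1 cells 16 of the 18 were higher, with a median of 1.56. The difference between strains was called for NQM1 (1.24, adjusted p 0.0342), and with the slide as a block for 7 genes, DDR2 (adjusted p 0.000551) and HSP12 (adjusted p 0.00107) among them. For NQM1 the call was lost in 10 of 22 alternative settings.

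Genes of trehalose and glycogen, the storage sugars that yeast lays down under stress, rose for 13 of 17 members and fell for none (39.1% of all genes were higher), with a median of 0.70. TSL1 (YML100W), a subunit of the trehalose synthase complex, had −1.64, −2.17 and −1.80 with DTT, against −4.04, −4.41 and −4.19 untreated, a change of 2.35 (SE 0.19, adjusted p 8.83e-07). TPS1, the synthase itself, rose by 1.61, the acid trehalase ATH1 by 1.57 and the phosphoglucomutase PGM2 by 1.49. ATH1 breaks trehalose down, and the other 3 take part in making these sugars or their precursors. GAC1, a targeting subunit of the phosphatase that activates glycogen synthase, changed by −0.96 without being called (adjusted p 0.128). With the slide as a block GAC1 was called lower (adjusted p 0.00595), and the list had 15 genes higher and 1 lower. GSY1, a glycogen synthase, rose by 0.59 in ΔLD cells and by 1.67 in IRE1 cells, the 1 called difference of the list (−1.08 (SE 0.26, adjusted p 0.0191)), where the block gave 3. The call of the change of GSY1 was lost in 4 of 23 alternative settings, and that of its difference in 6 of 22.

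DTT acts on thiols, and genes of thiol redox control were examined as a list. Of 23 genes 18 rose (39.1% of all genes), 8 of them at least 2-fold (6.18% of all genes), and 1 fell (29.5% of all genes), with a median of 0.51. GPX2 (YBR244W), a peroxidase, had −0.06, −0.31 and −0.37 with DTT, against −1.87, −1.89 and −2.03 untreated, a change of 1.68 (SE 0.09, adjusted p 6.25e-08). GTT2, a glutathione transferase, rose by 1.30, the mitochondrial peroxiredoxin PRX1 by 1.29, the glutaredoxin GRX1 by 1.24 and the thioredoxin TRX2 by 1.03. The member that fell was GRX4 (−0.62), a glutaredoxin of iron signalling, and that fall was not called when scaled to the E1A probes. The peroxiredoxin gene TSA1 (0.45 in ΔLD cells and 0.96 in IRE1 cells) and the glutaredoxin gene GRX3 (0.37 and 0.88) rose less in ΔLD cells (adjusted p 0.0053 for the first difference and 0.011 for the other). TSA2, the stress-induced peroxiredoxin, rose by 1.12 in ΔLD cells (adjusted p 7.62e-05), and its change of 0.38 in IRE1 cells was not called; the difference itself was not called either (0.74 (SE 0.23, adjusted p 0.0684)), but was with the slide as a block (adjusted p 0.00173).

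All 33 proteasome genes were called higher (39.1% of all genes), by 0.22 to 1.17, with a median of 0.57. No gene of this list had overlapping groups, as was so for 72.1% of all genes. RPN4 (YDL020C), the activator of proteasome genes, had 0.76, 0.69 and 0.87 with DTT, against −0.39, −0.44 and −0.35 untreated, a change of 1.17 (SE 0.08, adjusted p 2.09e-07), and was the 1 member above 2-fold. RPN9, a regulatory subunit, rose by 0.73, and the catalytic-core genes PRE3 and PRE2 by 0.72 and 0.68. In IRE1 cells 31 of the 33 rose, with a median of 0.45. For all 33 genes the 95% interval of the difference lay within 2-fold, as it did for 92.8% of all genes. The rise of RPN4 was larger in ΔLD cells by 0.58 (SE 0.11, adjusted p 0.00614), a call that was lost without slide 1, without slide 2 and when scaled to the E1A probes.

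**Figure D3:**
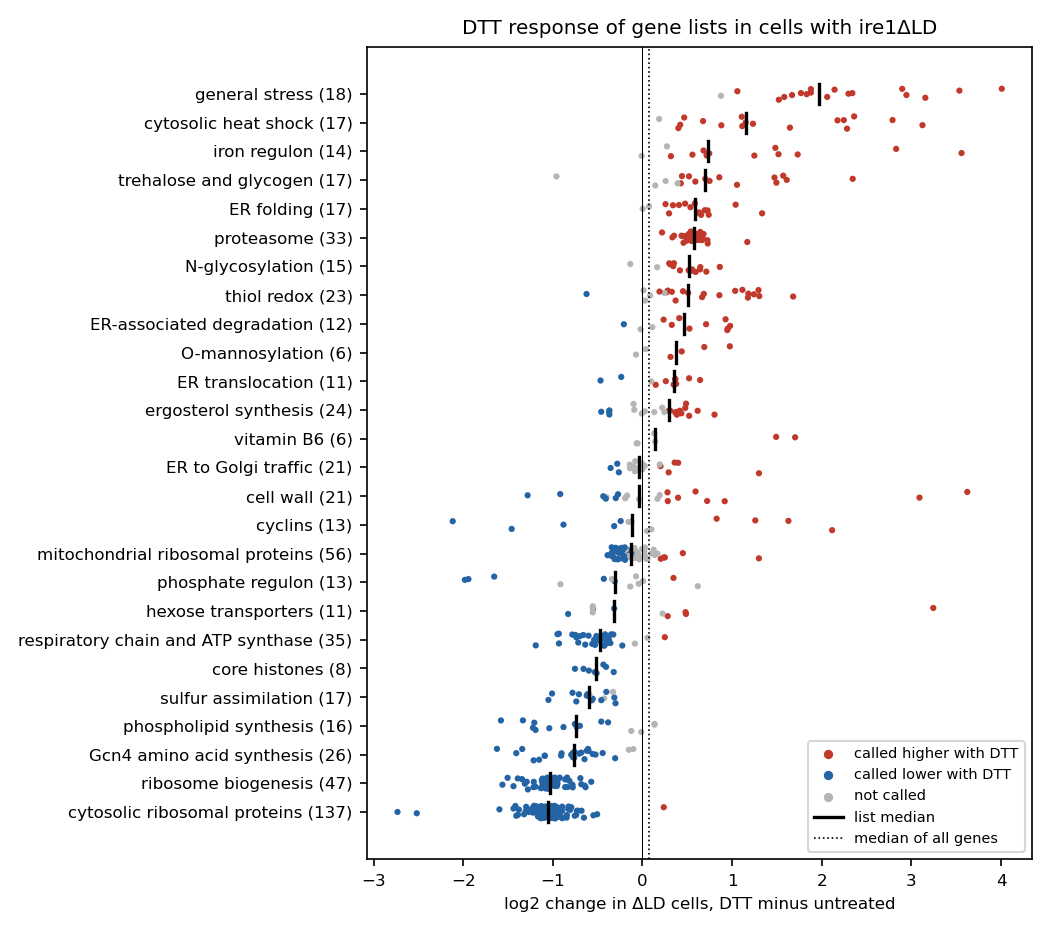
Log2 change with DTT in ΔLD cells (horizontal axis) of the members of 26 gene lists, ordered by their median, with the number of genes tested in brackets; red and blue points were called higher and lower, grey points were not called, bars are list medians and the dotted line is the median of all genes at 0.07. General stress stands highest at 1.97 and cytosolic ribosomal proteins lowest at −1.06.

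Genes of the unfolded protein response itself still rose in ΔLD cells, most of them by less than in IRE1 cells. Of 17 ER folding genes 15 were called higher (39.1% of all genes) and none lower, with a median of 0.59, against 1.66 in IRE1 cells, where 14 were higher. The slide medians in ΔLD cells were 0.32, 0.61 and 0.72. KAR2 (YJL034W), the Hsp70 of the ER, had 3.93, 4.14 and 4.15 with DTT, against 2.84, 2.73 and 2.65 untreated, in ΔLD cells. In IRE1 cells KAR2 had 5.27, 5.11 and 5.17 with DTT, against 2.83, 2.98 and 2.82 untreated. The rise of KAR2 was thus 1.33 (SE 0.08, adjusted p 1.04e-07) in ΔLD cells and 2.30 in IRE1 cells, with a difference of −0.97 (SE 0.11, adjusted p 0.00022). ERO1 (YML130C), an oxidase for forming protein disulfides in the ER, had 1.68, 1.97 and 2.02 with DTT, against 0.85, 0.94 and 0.76 untreated, in ΔLD cells. In IRE1 cells ERO1 had 3.67, 3.66 and 3.65 with DTT, against 0.85, 1.00 and 0.87 untreated. Its difference of −1.72 (SE 0.12, adjusted p 3.82e-06) was larger than that of KAR2, and PDI1 (YCL043C), the protein disulfide isomerase, lay close to KAR2 with −1.02 (SE 0.11, adjusted p 0.000123).

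The members of the list kept very different parts of their rise. SIL1 (YOL031C), a nucleotide exchange factor of Kar2, had −0.83, −0.81 and −0.78 with DTT, against −1.03, −1.09 and −1.20 untreated, in ΔLD cells, and 1.95, 1.98 and 1.88 with DTT, against −1.25, −1.09 and −1.10 untreated, in IRE1 cells. Its change was 0.30 in ΔLD cells and 3.09 in IRE1 cells. JEM1 (YJL073W), a J-domain partner of Kar2, changed by 0.00 (adjusted p 0.982) in ΔLD cells and rose by 2.11 in IRE1 cells, a difference of −2.11 (SE 0.12, adjusted p 1.16e-06). In ΔLD cells the JEM1 arrays overlapped, with −3.18, −2.93 and −2.82 with DTT, against −2.93, −3.02 and −2.98 untreated. Its change in ΔLD cells turned negative in 7 alternative settings and was called lower with quantile normalization (−0.22, adjusted p 0.0307). EUG1 and MPD1, both relatives of Pdi1, rose by 0.70 and 0.74 in ΔLD cells and by 2.76 and 2.68 in IRE1 cells. LHS1, another ER Hsp70, rose by 0.54 and 2.03, and the J-protein ERJ5 by 0.73 and 1.82. CPR5, an ER proline isomerase, rose alike in both strains, by 0.65 and 0.66. The 95% interval of its difference lay within 2-fold, as for 92.8% of all genes. The difference was called lower in ΔLD cells for 12 of the 17 genes (7.43% of all genes).

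**Figure D4:**
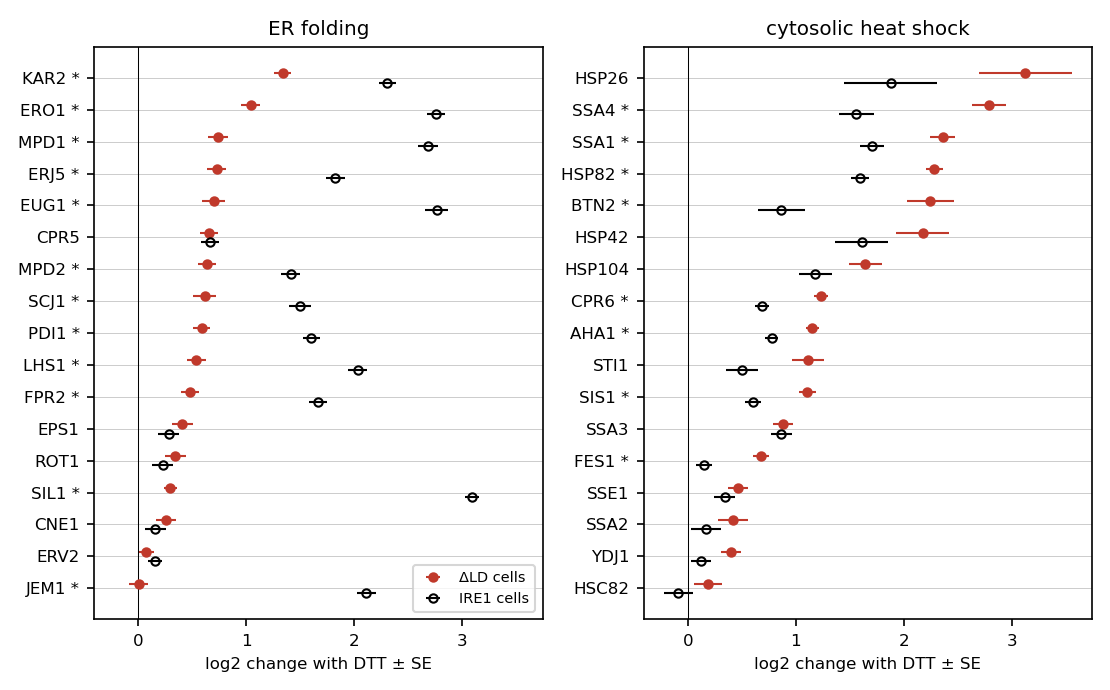
Log2 change with DTT ± SE of the 17 ER folding genes (left) and the 17 cytosolic heat shock genes (right), filled in ΔLD cells and open in IRE1 cells (3 arrays per group); a star marks a called difference between the strains. The starred ER folding genes lie lower in ΔLD cells (KAR2 1.33 and 2.30, JEM1 0.00 and 2.11), and the starred heat shock genes lie higher in ΔLD cells (SSA4 2.79 and 1.56).

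The other ER lists also had lower medians in ΔLD cells than in IRE1 cells. Of 12 genes of ER-associated degradation 9 rose (39.1% of all genes) and 1 fell (29.5% of all genes). The median was 0.47, and 0.88 in IRE1 cells. The difference was lower in ΔLD cells for 7 of the 12 (7.43% of all genes). DFM1 (YDR411C), a membrane protein of this pathway, had −0.01, 0.24 and 0.28 with DTT, against −0.72, −0.84 and −0.87 untreated, a change of 0.98 (SE 0.08, adjusted p 7.16e-07) and a difference of −0.97 (SE 0.11, adjusted p 0.000198). The ubiquitin ligase HRD1 rose by 0.95 in ΔLD cells and 1.82 in IRE1 cells, its partner USA1 by 0.93 and 1.51, and DER1 by 0.41 and 2.14. UBX2, which recruits Cdc48, rose by 0.95 and 0.92. Of 15 N-glycosylation genes 13 rose (39.1% of all genes) and none fell (median 0.51, and 0.63 in IRE1 cells). With the slide as a block 1 fell, OST5 (−0.14). The glucosidase II gene ROT2 rose by 0.86 and the glucosidase I gene CWH41 by 0.71. ALG12 and ALG7, which build the sugar chain, rose by 0.65 and 0.64 with differences of −0.62 and −0.59.

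Of 6 O-mannosyltransferase genes 4 rose (39.1% of all genes), with a median of 0.38, and 1.10 in IRE1 cells. PMT3 (YOR321W) had −1.19, −1.04 and −0.95 with DTT, against −1.84, −2.07 and −2.19 untreated, in ΔLD cells, and 0.35, 0.54 and 0.53 with DTT, against −2.17, −2.04 and −2.04 untreated, in IRE1 cells, a difference of −1.58 (SE 0.14, adjusted p 2e-05). PMT5 rose by 0.44 with a difference of −1.18, and PMT1 by 0.31 with a difference of −0.84. PMT6 rose by 0.69, and its difference of 0.15 was not called (adjusted p 0.51). Of 11 translocation genes 8 rose (39.1% of all genes) and 2 fell (29.5% of all genes), with a median of 0.35. SEC66 was highest at 0.64, and SSS1, a small translocon subunit, was at −0.47.

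Genes of vesicle traffic between ER and Golgi stood near the median of all genes in ΔLD cells. Of 21 genes 5 rose (23.8%, against 39.1% of all genes), 3 fell (14.3%, against 29.5%) and 13 were not called. The median was −0.03, against 0.43 in IRE1 cells, where 17 rose (40% of all genes). The difference was lower in ΔLD cells for 13 of the 21 (7.43% of all genes), and for 2 without slide 2. ERV29 (YGR284C), a cargo receptor, was the exception with 0.45, 0.80 and 0.80 with DTT, against −0.59, −0.49 and −0.76 untreated, a change of 1.30 (SE 0.11, adjusted p 9.55e-07). ERP1 and ERV25, of the p24 family, rose by 0.40 and 0.36, and SEC22, a fusion protein of these vesicles, changed by −0.36. Scaled to the E1A probes, the list median was 0.31 with 7 genes called higher and none lower.

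For HAC1 (YFL031W) itself no difference between the strains was called. It had 2.23, 2.25 and 1.98 with DTT, against 1.64, 1.39 and 0.95 untreated, in ΔLD cells, and 2.19, 2.29 and 2.14 with DTT, against 1.43, 1.39 and 1.51 untreated, in IRE1 cells. The change was 0.82 (SE 0.14, adjusted p 0.000261) in ΔLD cells and 0.76 in IRE1 cells, with a difference of 0.06 (SE 0.20, adjusted p 0.892) whose sign turned under 4 alternative settings. The signal does not tell spliced from unspliced HAC1 RNA. ULI1 (YFR026C), a gene of the unfolded protein response, had −5.47, −5.57 and −5.42 with DTT, against −5.99, −6.42 and −6.02 untreated, in ΔLD cells, and −0.44, −0.07 and −0.17 with DTT, against −6.11, −6.07 and −5.95 untreated, in IRE1 cells. Its change of 0.65 in ΔLD cells was called (adjusted p 0.00042) and was smaller than that in IRE1 cells by 5.16 log2 units, the largest difference between the strains.

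Genes for making ribosomes fell together in ΔLD cells, and no difference from IRE1 cells was called for them in the fit used here. Of 137 cytosolic ribosomal protein genes 136 were called lower (29.5% of all genes were lower), 92 of them at least 2-fold (5.5% of all genes). The list median was −1.06, with slide medians of −0.92, −1.16 and −1.09. The 1 member that was higher was RPL15B (0.24, adjusted p 0.00711). Behind RPL7B and RPL8A came RPL22B (YFL034C-A), with −0.57, −0.49 and −0.39 with DTT, against 1.05, 1.13 and 1.16 untreated and a change of −1.60 (SE 0.06, adjusted p 1.01e-08), and RPL9B with −1.44. In IRE1 cells the median was −1.16. No difference was called for any of the 137 genes. For all 137 the 95% interval of the difference lay within 2-fold (92.8% of all genes). With the slide as a block the difference of 1 gene was called, RPL29 (0.27, adjusted p 0.0441). With quantile normalization the median was −0.57 with 132 genes lower, and scaled to the E1A probes it was −0.72 with 131 genes lower.

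All 47 ribosome biogenesis genes were called lower (29.5% of all genes), 27 at least 2-fold (5.5% of all genes). The list median was −1.03, with slide medians of −1.01, −0.97 and −1.09. NOP7 (YGR103W), needed to process the RNA of the large subunit, had 0.39, 0.24 and 0.15 with DTT, against 1.92, 1.69 and 1.86 untreated, a change of −1.56 (SE 0.12, adjusted p 4.22e-07). The nucleolin-like NSR1 changed by −1.50, RRP5 by −1.44 and the helicase DBP3 by −1.39. In IRE1 cells the median was −1.06, no difference was called, and all 47 intervals lay within 2-fold (92.8% of all genes). With the slide as a block the difference of NOG1 was called (−0.29, adjusted p 0.0266), and with the E1A scaling 2 differences were. Mitochondrial ribosomal proteins moved little: 23 of 56 fell (41.1%, against 29.5% of all genes) and 5 rose (8.93%, against 39.1%), with a median of −0.13. The highest of the listed genes was MRP8 (1.30), followed by MRPL10 (0.45), and the lowest were MRPL39 (−0.39) and MRPL20 (−0.35). MRP8 was listed by its name, and whether it encodes a mitochondrial ribosomal protein was not checked here. With the E1A scaling 15 of the 56 rose, none fell, and the median was 0.21.

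Amino acid and energy genes were lower as well. Of 26 genes of amino acid synthesis under Gcn4 24 fell (29.5% of all genes), 7 at least 2-fold (5.5% of all genes). The median was −0.76. The E1A scaling left 14 called lower, with a median of −0.42. ARG3 (YJL088W), of arginine synthesis, had −1.47, −1.63 and −1.48 with DTT, against 0.10, 0.18 and 0.01 untreated, a change of −1.62 (SE 0.08, adjusted p 3.45e-08). ARG4 changed by −1.41, ARO4, of aromatic amino acid synthesis, by −1.34, and ILV3, of branched-chain synthesis, by −1.21. Of 17 sulfur assimilation genes 14 fell (29.5% of all genes) and none rose, with a median of −0.59. MET5 and MET10, the subunits of sulfite reductase, changed by −1.05 and −1.01, the acetyltransferase MET2 by −0.78, and the sulfate permease SUL1 by −0.74. Scaled to the E1A probes only 3 of the 17 were called lower.

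Of 35 genes of the respiratory chain and ATP synthase 32 fell (29.5% of all genes) and 1 rose (39.1% of all genes). The list median was −0.47, against −0.68 in IRE1 cells. CYC1, cytochrome c, had 1.18, 1.23 and 1.31 with DTT, against 2.35, 2.57 and 2.37 untreated, a change of −1.19 (SE 0.12, adjusted p 4.02e-06). COX12 and COX5A, of cytochrome c oxidase, changed by −0.95 and −0.93, and the NADH dehydrogenase NDE1 by −0.93. Scaled to the E1A probes 8 were called lower and 2 higher. All 8 core histone genes fell (29.5% of all genes), with a median of −0.52, and 1 remained called lower with that scaling. HTA2 changed by −0.75, HTA1 by −0.66, HHT1 by −0.60 and HTB2 by −0.53.

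Phospholipid synthesis genes fell in ΔLD cells, and INO1 moved in opposite directions in the 2 strains. Of 16 genes 12 fell in ΔLD cells (29.5% of all genes), 6 of them at least 2-fold (5.5% of all genes), and none rose. The median was −0.74, against −0.39 in IRE1 cells, where 2 rose. With the E1A scaling 9 of the 16 fell and 2 rose in ΔLD cells, with a median of −0.40. INO1 (YJL153C), which makes the inositol used for phosphatidylinositol, had −5.39, −5.31 and −5.05 with DTT, against −4.27, −4.12 and −3.69 untreated, in ΔLD cells, and −2.32, −2.37 and −2.36 with DTT, against −4.23, −4.01 and −3.71 untreated, in IRE1 cells. With DTT, INO1 thus changed by −1.22 (SE 0.16, adjusted p 2.7e-05) in ΔLD cells and by 1.63 in IRE1 cells, a difference of −2.85 (SE 0.22, adjusted p 8.92e-06). OPI3 (YJR073C), of the last steps to phosphatidylcholine, had 2.63, 2.57 and 2.85 with DTT, against 3.94, 3.83 and 3.85 untreated, in ΔLD cells, and 3.75, 3.80 and 3.81 with DTT, against 3.84, 3.84 and 4.03 untreated, in IRE1 cells. The ΔLD arrays with DTT lay below all other arrays, and those of IRE1 cells lay between 3.75 and 4.03. Its change was −1.19 (SE 0.08, adjusted p 2.06e-07) in ΔLD cells and −0.12 in IRE1 cells, with a difference of −1.07 (SE 0.11, adjusted p 0.00011). In a fit to all 24 arrays, which include those labelled Δopi3, neither was called, and the cause was not tested.

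INO2, an activator of INO1, changed by −1.21 in ΔLD cells and −0.61 in IRE1 cells, the third called difference of the list (−0.59 (SE 0.13, adjusted p 0.013)). That call was lost without slide 1 and without slide 2. ITR1 (YDR497C), an inositol permease, had 1.69, 1.71 and 1.89 with DTT, against 3.43, 3.29 and 3.32 untreated, a change of −1.58 (SE 0.10, adjusted p 1.37e-07), and HNM1, the choline permease, changed by −1.33. In IRE1 cells the changes were −1.27 and −1.25. Ergosterol genes had a median of 0.30, against 0.07 over all genes. Of 24 genes 13 rose (54.2%, against 39.1% of all genes) and 4 fell (16.7%, against 29.5%). ERG27 (0.80), ERG3 (0.62), ERG10 (0.52) and ERG6 (0.49) stood highest. The difference was called higher in ΔLD cells for 5 of the 24 (2.61% of all genes) and lower for 1, and with the E1A scaling for none and 3.

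Cell wall genes stood near all genes in their counts. Of 21 genes tested 8 rose (38.1%, against 39.1% of all genes) and 6 fell (28.6%, against 29.5%), with a median of −0.04. NCA3 and GSC2 rose most, while PIR1 (YKL164C), a wall mannoprotein, had 1.13, 0.87 and 1.05 with DTT, against 2.26, 2.30 and 2.33 untreated, a change of −1.28 (SE 0.09, adjusted p 2.03e-07), and PIR3 changed by −0.92. With quantile normalization the median was 0.38, with 14 higher and 4 lower, and scaled to the E1A probes it was 0.30, with 10 higher and 1 lower. HPF1 (YOL155C), a wall mannoprotein, had 0.05, 1.04 and 1.15 with DTT, against 1.20, 1.24 and 1.01 untreated, in ΔLD cells, and −1.93, −1.56 and −0.97 with DTT, against 0.21, 0.46 and 0.77 untreated, in IRE1 cells. Replicate 1 with DTT was the lowest ΔLD array, the change of −0.40 was not called (adjusted p 0.229), and the difference was 1.56 (SE 0.41, adjusted p 0.0307). Its relative CSS1 had −0.88, 0.29 and 0.25 with DTT, against 0.17, 0.26 and −0.02 untreated, in ΔLD cells and a difference of 1.52 (SE 0.43, adjusted p 0.0468). The call was lost in 10 of 22 alternative settings for HPF1 and in 12 for CSS1.

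Iron genes rose for 12 of 14 members (39.1% of all genes), with a median of 0.74 in ΔLD cells and 0.76 in IRE1 cells. TIS11 led, and FRE1 (YLR214W), a ferric reductase, had 2.33, 2.12 and 2.08 with DTT, against −0.78, −0.52 and −0.65 untreated, a change of 2.83 (SE 0.18, adjusted p 1.46e-07). The siderophore transporters SIT1 and ARN1 rose by 1.73 and 1.52. FIT2, a wall protein that holds siderophores, rose by 0.73 in ΔLD cells and changed by 0.01 in IRE1 cells (0.71 (SE 0.12, adjusted p 0.00229)). The call of this difference was lost without slide 2 and when scaled to the E1A probes. Of 13 phosphate genes 5 fell (38.5%, against 29.5% of all genes) and 1 rose (7.69%, against 39.1%), with a median of −0.31. Scaled to the E1A probes 3 fell and 2 rose, with a median of 0.03. The acid phosphatases PHO12 and PHO11, near-identical copies whose signals may be shared, changed by −1.98 and −1.94, and PHO5 by −1.65 with a wide spread between arrays (−4.97, −4.42 and −4.04 with DTT, against −3.64, −2.67 and −2.16 untreated). PHM6 changed by −0.43. Of 11 hexose transporters 4 rose (36.4%, against 39.1% of all genes) and 3 fell (27.3%, against 29.5%), with a median of −0.32, which was 0.03 when scaled to the E1A probes: HXT5 led, GAL2 rose by 0.49, HXT3 changed by −0.55 and HXT2 by −0.83.

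Cyclin genes stood near all genes in their counts, with large changes of single members. Of 13 cyclins and related genes 4 rose (30.8%, against 39.1% of all genes) and 5 fell (38.5%, against 29.5%), with a median of −0.12. The E1A scaling gave 6 higher and 3 lower, with a median of 0.22. PCL1 (YNL289W), a cyclin of the Pho85 kinase, had 1.35, 1.43 and 1.36 with DTT, against −0.68, −0.65 and −0.87 untreated, a change of 2.12 (SE 0.08, adjusted p 6.75e-09). PCL2 rose by 1.63, CLN1 by 1.26 and CLN2 by 0.83. FAR1, an inhibitor of the G1 kinase, changed by −1.46, the mitotic cyclin gene CLB2 by −0.88, and CLB1 fell as given above. The S-phase cyclin gene CLB6 changed by −0.32 and SIC1, an inhibitor of the S-phase kinase, by −0.24. The rises of PCL1, PCL2 and CLN2 were larger in ΔLD cells, by 0.53 (adjusted p 0.00989), 0.53 (adjusted p 0.00271) and 0.52 (adjusted p 0.0309). None of the 3 differences was called when scaled to the E1A probes. With that scaling counted, the call was lost in 5 of 22 alternative settings for PCL1, 2 for PCL2 and 12 for CLN2.

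SNO1 and SNZ1, neighbouring genes of vitamin B6 synthesis, responded in ΔLD cells. SNZ1 (YMR096W) had 0.91, 1.92 and 1.79 with DTT, against −0.15, 0.07 and 0.23 untreated, in ΔLD cells, and 1.55, 1.86 and 1.67 with DTT, against 1.48, 1.95 and 1.73 untreated, in IRE1 cells. SNO1 (YMR095C) had −4.27, −3.09 and −3.21 with DTT, against −5.55, −5.15 and −4.97 untreated, in ΔLD cells, and −3.91, −3.70 and −3.81 with DTT, against −3.91, −3.33 and −3.82 untreated, in IRE1 cells. The 6 arrays of IRE1 cells overlapped for both genes, and the untreated ΔLD arrays were the lowest of all for both. The change was 1.49 (SE 0.23, adjusted p 0.0001) for SNZ1 and 1.70 (SE 0.27, adjusted p 0.000155) for SNO1, with differences of 1.52 (SE 0.32, adjusted p 0.00999) and 1.82 (SE 0.38, adjusted p 0.0103). Both differences were lost without slide 2 and without slide 3. The other 4 genes of the list, SNZ2, SNZ3, SNO2 and SNO3, are near-identical pairs and were not called in ΔLD cells. SNZ2 and SNZ3 rose in IRE1 cells, by 0.67 and 0.70, and their differences were called lower in ΔLD cells, −0.54 (SE 0.13, adjusted p 0.0176) and −0.56 (SE 0.14, adjusted p 0.0267). With the slide as a block the change of SNZ3 in ΔLD cells (0.14) was called too (adjusted p 0.0439).

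Most of the genes that responded to DTT with Ire1 also responded without its lumenal domain. There were 447 genes with a rise of 2-fold or more in IRE1 cells (median 1.39). Of these, 416 were called higher in ΔLD cells (39.1% of all genes), 2 lower and 29 not called. At least a 2-fold rise in ΔLD cells too was seen for 240 of the 447 (6.18% of all genes). The median change of the 447 genes in ΔLD cells was 1.09, with quartiles of 0.61 and 1.61 and an SD of 0.088 between slides. The difference was called smaller in ΔLD cells for 180 of them (lower for 7.43% of all genes), a share that the choice of genes by their rise in IRE1 cells favours. The 2 called lower were INO1 and IRC4 (YDR540C), which changed by −0.45 in ΔLD cells and 1.95 in IRE1 cells. Of the 398 genes that fell at least 2-fold in IRE1 cells (median −1.19), 387 were called lower in ΔLD cells (29.5% of all genes). None was called higher and 11 were not called. The median of the 398 genes in ΔLD cells was −1.10, with quartiles of −1.27 and −0.98. By a called difference 14 fell less than in IRE1 cells (the difference was called higher for 2.61% of all genes).

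Read from the other side, 374 of the 381 genes with a 2-fold or larger rise in ΔLD cells were called higher in IRE1 cells. Of these, 240 rose at least 2-fold there. Over all genes 40% were called higher in IRE1 cells and 7.25% rose at least 2-fold. Of the 339 that fell at least 2-fold in ΔLD cells, 332 were also called lower in IRE1 cells (31.4% of all genes). At least a 2-fold fall in IRE1 cells was seen for 282 of them (6.46% of all genes). The 95% interval of the difference lay within 2-fold for 275 of the 381 (72.2%) and for 317 of the 339 (93.5%), and for 92.8% of all genes. The rise was called smaller than in IRE1 cells for 22 of the 381 and larger for 51, and the choice of genes by their rise in ΔLD cells favours the larger ones. Over all genes the difference was called lower in ΔLD cells for 7.43% and higher for 2.61%. Larger rises numbered 4 when scaled to the E1A probes, 1 without slide 2, 27 without slide 3 and 125 with the slide as a block, and smaller ones 33, 11, 17 and 27. The fall was called smaller for 1 of the 339, ODC2, a mitochondrial carrier (−1.15 in ΔLD cells and −1.47 in IRE1 cells), and larger for 13. These stand beside the same 2.61% (higher) and 7.43% (lower) of all genes. The difference of ODC2 (0.33, adjusted p 0.0397) was no longer called in 15 of 22 alternative settings and turned sign in another, the E1A scaling.

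By measured value, the 7 genes that rose at least 2-fold in ΔLD cells and were not called in IRE1 cells were SNO1, SNZ1, TSA2, PRM5, SPG4, GRE1 and YAR066W. PRM5 (YIL117C), a target of the cell wall integrity kinase, had 1.66, 1.86 and 1.86 with DTT, against 0.58, 0.80 and 0.70 untreated, in ΔLD cells, and 0.52, 0.76 and 1.14 with DTT, against 0.72, 0.99 and 0.76 untreated, in IRE1 cells. The groups of IRE1 cells overlapped, and the difference was 1.12 (SE 0.19, adjusted p 0.00324). That call was lost without slide 2 and when scaled to the E1A probes. SPG4, a gene of stationary phase, rose by 1.59 and GRE1, a hydrophilin, by 1.58. Neither difference was called (adjusted p 0.169 and adjusted p 0.672), but with the slide as a block that of SPG4 was (adjusted p 0.000226). The call of the change of GRE1 in ΔLD cells was lost in 3 of 23 alternative settings. YAR066W was not well above background on any untreated ΔLD array and was at least 1.49-fold higher with DTT (adjusted p 0.00153), so a 2-fold rise is not established for it. The 7 genes that fell at least 2-fold in ΔLD cells and were not called lower in IRE1 cells were INO1, OPI3, SPS4, PHO5, YLR154W-F, YMR320W and FRK1. FRK1 (YPL141C), a protein kinase, had −2.62, −2.65 and −2.64 with DTT, against −1.70, −1.65 and −1.54 untreated, a fall that was called (adjusted p 1e-06), with a difference of −0.80 (SE 0.12, adjusted p 0.00127).

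**Figure D5:**
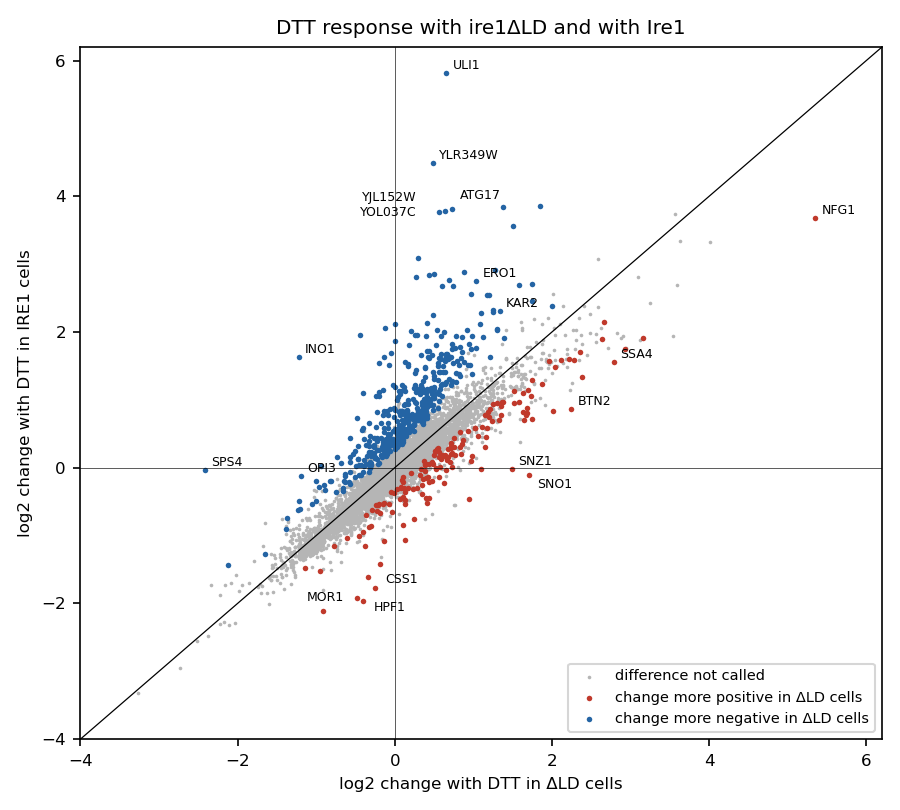
Log2 change with DTT in ΔLD cells (horizontal axis) against that in IRE1 cells (vertical axis), 1 point for each of 6165 genes, with the line of equal change; blue marks the 458 genes whose change was called more negative in ΔLD cells and red the 161 whose change was called more positive. ULI1 (0.65 and 5.82), KAR2 and ERO1 lie above the line, INO1 lies at −1.22 and 1.63, and SSA4 and SNO1 lie below it.

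The test of the difference itself called 619 genes, 161 with a more positive change in ΔLD cells (2.61%) and 458 with a more negative one (7.43%), of which 20 and 89 differed at least 2-fold. At an unadjusted p under 0.05 there were 1365 genes. With the slide as a block 1096 genes were called. Among genes named for their change, the block added the differences of YPT53 (0.89), HXT5 (0.82), FRE1 (0.84), PIR3 (0.88), PHO5 (−0.84), SEC66 (−0.58), YAR066W, YMR320W, HSP104, GRX1, ERG6, ERV25 and MET10, with adjusted p from 0.00392 for PIR3 to 0.0466 for MET10. By measured value the most negative differences were those of ULI1, YLR349W, YOL037C, YJL152W, ATG17 and INO1, where the places of YLR349W and YJL152W rest on signal at background. ATG17 (YLR423C), a scaffold of autophagy, had −2.11, −2.11 and −2.14 with DTT, against −2.84, −2.91 and −2.78 untreated, in ΔLD cells, and 1.08, 1.28 and 0.93 with DTT, against −2.75, −2.73 and −2.66 untreated, in IRE1 cells, a difference of −3.09 (SE 0.11, adjusted p 1.31e-08). YOL037C, a reading frame without a known role, changed by 0.57 in ΔLD cells and 3.77 in IRE1 cells (−3.20 (SE 0.20, adjusted p 1.39e-06)). YLR349W was well above background on 2 ΔLD arrays with DTT, none untreated and 3 arrays of IRE1 cells with DTT, and was at least 1.06-fold higher with DTT in ΔLD cells (adjusted p 0.0152). YJL152W, next to INO1 by its systematic name, was not well above background on any ΔLD array and was so on all 3 arrays of IRE1 cells with DTT. The most positive differences were those of SNO1, NFG1 (1.67 (SE 0.35, adjusted p 0.01)), HPF1, SNZ1, CSS1 and MOR1 (YDR366C). MOR1 had −3.84, −4.68 and −4.52 with DTT, against −3.38, −3.99 and −4.21 untreated, in ΔLD cells, with overlapping groups and a change called only with the slide as a block (adjusted p 0.022), and −5.12, −5.62 and −5.11 with DTT, against −3.35, −3.41 and −3.31 untreated, in IRE1 cells, a difference of 1.45 (SE 0.34, adjusted p 0.0176).

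The count of differences rested on the slides more than the count of changes did. Without slide 2 the differences called were 129, of which 3.10% were more positive in ΔLD cells in place of 26.0%, and without slide 3 they were 313. Scaled to the E1A probes 803 were called, of which 1.12% were more positive. The differences of SIL1, JEM1, EUG1, LHS1, MPD1, ERJ5, ERO1, KAR2, PDI1, DER1, PMT3, PMT5, ULI1, ATG17, INO1, IRC4, SPS4 and FRK1 were called under every alternative setting in which they were tested.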

How the data were processed

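RNA of 24 yeast samples was measured on one-colour Agilent arrays, and 12 arrays in 4 groups of 3 were used, grouped by title. The authors deposited spot intensity values from Agilent Feature Extraction 10.7.1.1, which per the file headers are background-subtracted without scaling between arrays. A second deposited table gives log2 ratios of selected genes by a normalization that is not stated; the change with DTT taken from it was within 0.1 of the values here for 99.8% of 551 genes. Gene names were matched to the reference gene table for 5722 of 6165 genes, and no coordinates are given because the array design rests on another genome build.

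Control spots and outlier spots (1.10% to 2.05% of an array) were left out, the 75th percentile of log2 signal was subtracted, and the 9 or 10 spots of a probe and then probes of 1 systematic name were averaged. Genes entered the fit if over 50% of their spots stood well above background on every array of some group. limma 3.58.1 in R 4.3.3 was fitted to the 12 arrays with 4 group means (8 residual degrees of freedom), with two-sided p-values adjusted by Benjamini-Hochberg within each comparison, and was tested on simulated data. The difference between strains is the interaction. No exact test was run, since with 3 arrays per group its smallest p is 0.1. The number of arrays limits the precision. A probe below background on every array of a group gives a bound, computed from the lowest signal well above background. Same-numbered arrays share a slide per the file headers, and their deviations from the group means correlated at 0.32, 0.55 and 0.48 across genes. Unlike numbers gave at most −0.02, which is no separate contrast, since the deviations within a group cancel out. The fit with the slide as a block is therefore printed where it changes the call of a value the text gives.

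The members and the 26 lists, with 6 a-type and 4 alpha-type markers, were chosen with earlier results of these data known. Genes named were 8 fixed genes, the 12 largest rises and falls with separated groups, up to 4 called members per list and the 6 largest differences in each direction; other genes, such as JEM1, SIL1 and BTN2, were chosen after their values were seen. HSP150 of the cell wall list was not found under its name, and MF(ALPHA)2 did not pass the filter. Alternatives were quantile normalization, normexp correction of the median signal, scaling to the 10 E1A probes, other filters, fits to 24 or 6 arrays, the block, and leaving out each array or slide. Promoter and protein sequences were not used here.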

Additional observations from a re-analysis of the deposited data

Results flagged for a closer look

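The DTT effect differed between ΔLD and IRE1 cells, by the test of the difference, for 619 genes. Those named are given by group, as the ΔLD change minus the IRE1 change (log2, 3 arrays per group). Among the ER folding genes it was −0.97 for KAR2, −1.02 for PDI1, −1.72 for ERO1, −1.94 for MPD1, −1.10 for ERJ5, −2.79 for SIL1, −2.11 for JEM1, −2.06 for EUG1 and −1.50 for LHS1. Among the ER-associated degradation genes it was −0.97 for DFM1, −0.87 for HRD1, −0.58 for USA1 and −1.73 for DER1. Among the glycosylation genes it was −0.62 for ALG12, −0.59 for ALG7, −1.58 for PMT3, −1.18 for PMT5 and −0.84 for PMT1. Among the ER to Golgi genes it was −0.74 for ERV29 and −0.74 for ERP1. Among the phospholipid genes it was −2.85 for INO1, −1.07 for OPI3 and −0.59 for INO2. Among the cytosolic chaperone genes it was 1.23 for SSA4, 0.66 for SSA1, 0.69 for HSP82, 1.38 for BTN2 and 0.52 for FES1. Among the general stress genes and large risers it was 1.67 for NFG1, 1.24 for NQM1 and 1.18 for FMP45. Among genes of proteasome control and the G1 cyclins it was 0.58 for RPN4, 0.53 for PCL1, 0.53 for PCL2 and 0.52 for CLN2. Among the vitamin B6 and cell wall genes it was 1.82 for SNO1, 1.52 for SNZ1, 1.56 for HPF1, 1.52 for CSS1 and 1.12 for PRM5. The other negative differences were −0.90 for SUL1, −0.51 for GRX3, −2.40 for IRC4, −1.08 for GSY1, −5.16 for ULI1, −0.68 for CLB1, −3.09 for ATG17, −0.51 for TSA1, −0.63 for HXT2, −3.20 for YOL037C, −2.38 for SPS4 and −0.80 for FRK1, and the other positive ones 1.45 for MOR1, 0.35 for MRP8, 0.33 for ODC2 and 0.71 for FIT2. Many of these calls were lost under some alternative settings, among them in 11 of 22 for CLB1, 9 for SUL1 and for SSA1, 6 for HXT2 and 5 for MRP8. Calls were lost in 4 for ERV29 and for HSP82, and in 3 for MOR1, for FMP45 and for BTN2. With slide 2 left out 129 genes were called in all and no difference of the 17 cytosolic heat shock genes was. No group had enough arrays for a test of single outlying samples.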

How the results depend on the processing

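Under 23 alternative settings the number of genes changed by DTT in ΔLD cells stayed within 1.5 times the 4230 reported. Scaled to the E1A control probes, 840 genes were higher and 76 lower at least 2-fold, in place of 381 and 339. With the replicate block (the slide), 1096 differences between strains were called in place of 619, and 4650 changes; for the lists, the block changed the call of no ER folding gene. Leaving out 1 array or 1 slide gave 129 to 731 called differences, the fewest without replicate 2. The difference of HAC1 turned to −0.021 with quantile normalization, −0.387 with the E1A scaling, and ranged from −0.125 to 0.219 when an array or slide was left out (−0.106 without slide 3). With the E1A scaling the differences of IRE1 (−0.210), MRP8 (−0.104) and ODC2 (−0.125) and the change of CSS1 (0.093) turned sign; the change of CSS1 ranged from −0.510 to 0.155 in the leave-outs and was positive without replicate 1 with DTT (0.137) and without slide 1. JEM1 turned to −0.224 with quantile normalization and −0.029 with normexp correction, and ranged from −0.077 to 0.127 in the leave-outs. The cause was not tested. Of the values of named genes under these settings, 3623 changes and 1110 differences kept direction and side of the threshold, 42 and 157 were no longer called, 19 changes became called, and 10 and 7 turned sign. The 3623 also hold changes from the second deposited table, which have no p. Those were counted as kept when they lay within the SD between slides. Of 644 list medians, 58 moved by more than their spread between slides. Genes at background are limited by signal: YJL152W, YLR349W and YAR066W have bounds or none, and the filters gave 5932 to 6576 genes.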

Other observations

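Genes of mating type a were lower with DTT in ΔLD cells, apart from BAR1. Of the 6 genes, which were listed to check the strain, 5 were called lower (29.5% of all genes) and 1 higher (39.1% of all genes). Their median was −0.78, against 0.07 over all genes. MFA2 (YNL145W), a gene of a-factor, had −0.73, −1.21 and −1.20 with DTT, against 0.73, 0.90 and 0.79 untreated, a change of −1.85 (SE 0.13, adjusted p 2.53e-07). MFA1 (YDR461W), the other a-factor gene, had −0.21, −0.52 and −0.61 with DTT, against 0.91, 1.05 and 0.77 untreated, a change of −1.36 (SE 0.13, adjusted p 2.96e-06). STE2 (YFL026W), the receptor of alpha-factor, changed by −0.98, and AGA2, a subunit of the a-agglutinin, by −0.58. Scaled to the E1A probes 3 of the 6 genes were called lower, AGA2 not among them, with a median of −0.44. BAR1, the protease that degrades alpha-factor, rose by 0.32. STE3 (YKL178C), the a-factor receptor that defines the opposite type, had −4.66, −4.18 and −4.09 with DTT, against −5.59, −5.50 and −5.19 untreated, a change of 1.12 (SE 0.14, adjusted p 2.82e-05). The 3 tested markers of that type did not move together: 1 was called higher, 1 lower and 1 not, with a median of 0.03. MF(ALPHA)1 was the lower one (−0.92, adjusted p 0.00411), with only 1 ΔLD array with DTT above background, and SAG1 was not called. In IRE1 cells the median of the 6 genes was −0.83 and STE3 changed by 1.47, and no difference between the strains was called for any of these genes, while with the slide as a block those of MFA1 (−0.59, adjusted p 0.0035) and AGA2 (0.32, adjusted p 0.0441) were.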
